A study of Homo sapiens with 9 samples.

Results

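The human G2 and mitosis genes were followed as a set of 52 symbols in the gene table of 48162 genes. A row belonged to the set where its gene symbol was equal to a member's, and that rule uses no measured value. The 52 symbols stood on 53 rows, because CKS1B was also the symbol of a row on chromosome 5 with 1 to 9 counts per library, which was too low to be tested. The other 52 rows were tested among 15776 genes, so every symbol had a tested row, and each row had at least 1 count in each of the 9 libraries.

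Cells that divide make the RNA of these genes late in the cell cycle. Cyclin A and cyclin B with CDK1 bring cells into mitosis, PLK1 and the Aurora kinases drive the steps that follow, kinesins and microtubule-binding proteins build the spindle, the checkpoint holds anaphase until every kinetochore is attached, and CDC20 then starts the destruction of securin and cyclin B. Many of these genes share a promoter element, the cell cycle genes homology region (CHR), through which the MuvB complex holds them off in resting cells and, with MYBL2 and FOXM1, turns them on in cycling cells. p16, made from CDKN2A, is an inhibitor of CDK4 and CDK6 that keeps cells from entering the cycle. ATR is the kinase that senses stalled replication forks and delays mitosis while DNA is unreplicated.

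The promoters of the set carried the CHR letters more often than other promoters did. RefSeq promoters on GRCh38.p14, from 250 bases before to 50 bases after a transcription start, were at hand for 45 of the 52 genes with 57 starts in all, and TTK, UBE2C, BIRC5, FOXM1, BUB3, AURKA and TPX2 had no entry. The letters TTTGAA were searched on both strands, and 64.9% of the 57 promoters held them against 15.2% of all 35116 promoters in the table. The letters CCAAT, which on the other strand read ATTGG, were held by 68.4% against 34.6%, and both sets of letters by 49.1% against 5.90%. The CHR variant TTCGAA was held by 5.26% against 1.45%, and the E2F letters TTTCCCGC by 1.75% against 1.63%. These counts describe letters and not binding, and the searched motifs overlap one another only where CHR and CCAAT letters share a base. The 100 bases before the start are shown for CDK1, as the kinase of mitotic entry, and for 5 genes that passed a test between groups, with the CHR and CCAAT letters of either strand in capitals. Only windows that wholly held the CHR letters were shown, so they do not tell how often called genes carry them. CCNA2, SPC25 and AURKA also passed a test. CCNA2 had no TTTGAA, no SPC25 copy lay wholly in the window, and AURKA had no entry.
CDK1 (chr10:60778378-60778477, GRCh38.p14, plus strand): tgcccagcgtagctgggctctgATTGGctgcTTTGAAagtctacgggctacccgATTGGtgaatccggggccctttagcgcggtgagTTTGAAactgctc
ESPL1 (chr12:53268199-53268298, GRCh38.p14, plus strand): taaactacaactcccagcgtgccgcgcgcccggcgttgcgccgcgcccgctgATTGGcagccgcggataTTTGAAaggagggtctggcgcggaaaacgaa
CDCA8 (chr1:37692416-37692515, GRCh38.p14, plus strand): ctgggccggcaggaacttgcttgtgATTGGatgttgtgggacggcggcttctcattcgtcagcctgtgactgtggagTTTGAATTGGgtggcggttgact
PRC1 (chr15:90994536-90994635, GRCh38.p14, minus strand): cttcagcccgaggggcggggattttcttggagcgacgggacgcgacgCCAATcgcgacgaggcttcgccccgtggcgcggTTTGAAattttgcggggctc
INCENP (chr11:62123911-62124010, GRCh38.p14, plus strand): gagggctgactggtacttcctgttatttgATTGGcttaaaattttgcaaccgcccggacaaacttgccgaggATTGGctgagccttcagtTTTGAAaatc
KIF15 (chr3:44761694-44761793, GRCh38.p14, plus strand): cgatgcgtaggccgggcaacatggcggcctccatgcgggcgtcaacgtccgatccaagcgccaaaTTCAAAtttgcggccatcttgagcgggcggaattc
CDK1 held 2 CHR copies and 2 CCAAT copies in this window, and ESPL1 and PRC1 held 1 of each. CDCA8 had its CHR and 1 of its 2 CCAAT copies in letters that run into each other. INCENP had 1 CHR copy and 2 CCAAT copies, whereas KIF15 had a CHR on the other strand and no CCAAT letters. Of the CHR copies in the promoters of the set, 26 lay within 50 bases before the start, which is 45.6 copies per 100 promoters against 2.62 per 100 over all promoters in the table.

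**Figure D1:**
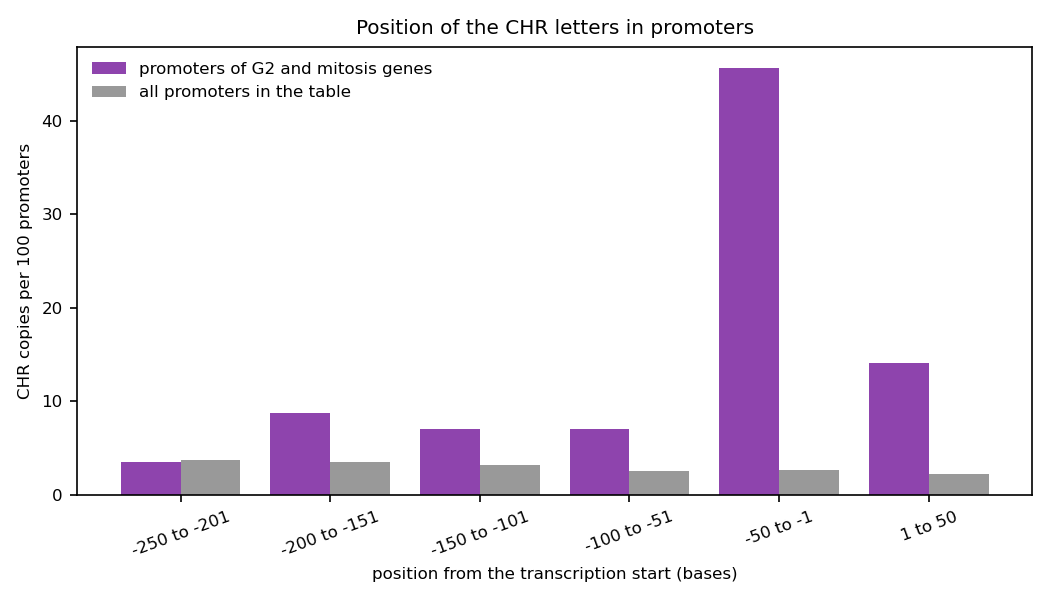
CHR copies (TTTGAA on either strand) per 100 promoters on the vertical axis, in windows by distance from the transcription start on the horizontal axis, for the 57 promoters of the G2 and mitosis genes (purple) and all 35116 promoters in the table (grey). The purple bar reaches 45.6 in the window just before the start, where the grey bar stands at 2.62.

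SKMEL28, a line of human melanoma cells, was grown in DMEM with 5% fetal bovine serum and was transduced with lentivirus in all groups, followed by 3 days in 1 μg per ml puromycin. Control cells (shCont) carried a hairpin against GFP, shp16 cells a hairpin against p16, and shp16/shATR cells hairpins against p16 and ATR. The paper used more than 1 ATR hairpin, and the labels do not say which was used for these libraries. Effects of the hairpin other than on ATR were not tested. Each group had 3 libraries of RNA, which are technical replicates of 1 experiment in 1 cell line, so that the p-values below measure the spread between these libraries and not between separate experiments. There was no group with the ATR hairpin alone. The total was between 17314662 and 23588174 counts per library, and levels are given in CPM, which is a gene's count scaled to a common library total after TMM normalization. In bulk RNA, fewer dividing cells and less RNA per dividing cell cannot be told apart.

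The hairpin targets and the cell type were looked at first. CDKN2A was at 162, 113 and 103 CPM in shCont, 78.1, 93.5 and 99.9 CPM in shp16 and 82.6, 90.00 and 82.4 CPM in shp16/shATR libraries, with a log2 difference of -0.48 ± 0.16 (SE, edgeR adjusted p = 0.0723) for shp16 minus shCont. All 3 shp16 libraries were below all 3 control libraries for CDKN2A, but the difference missed the threshold of 0.05. shCont replicate 1 had the highest CDKN2A level, and the difference was -0.26 without it (edgeR adjusted p = 0.0681) and -0.16 without both it and shp16 replicate 1 (edgeR adjusted p = 0.0817). ATR was at 45.9, 93.5 and 96.4 CPM in shCont, 93.5, 83.4 and 85.6 CPM in shp16 and 39.9, 39.98 and 41.05 CPM in shp16/shATR libraries, and fell by 1.12 on the log2 scale between shp16 and shp16/shATR cells (edgeR adjusted p = 0.0128). All 8 melanoma markers were detected in every group, with a summed level of 13386 to 15002 CPM in shCont, 7769 to 13015 CPM in shp16 and 10941 to 13044 CPM in shp16/shATR. The 4 immune markers summed to at most 0.0519 CPM in any library. The 4 keratinocyte markers summed to 1.63 to 2.11 CPM in shCont, 6.14 to 7.59 CPM in shp16 and 3.33 to 6.63 CPM in shp16/shATR, and the 5 fibroblast markers to between 27.2 and 46.1 CPM over all libraries. The part of these markers in the results was not tested.

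A pair of libraries stood apart from the others. The chi-square per degree of freedom over genes was 68.5 and 83.4 between shCont replicate 1 and the other shCont libraries, and 37.9 and 37.2 between shp16 replicate 1 and the other shp16 libraries, whereas other pairs of one group gave 1.94 to 9.66. Among the 52 genes, 27 were lower and 20 higher in shCont replicate 1 than in both other control libraries. The deviations followed gene length: Spearman's rho across the 52 genes between length and the log2 difference of that library from the others was -0.77, and -0.41 across all 15776 genes. SMC4, which has 5471 bases in the table, had 116 CPM in shCont replicate 1 and 233 and 265 CPM in the others. PTTG1, with 1070 bases, went the other way with 236 CPM against 157 and 154 CPM. In shp16 replicate 1 the same rho was 0.51 across the 52 genes and 0.17 across all genes, and in the 3 shp16/shATR libraries it lay between -0.19 and 0.25. These are descriptions across genes, which are not independent replicates, and counts below are also given without shCont replicate 1 and without both libraries.

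**Figure D2:**
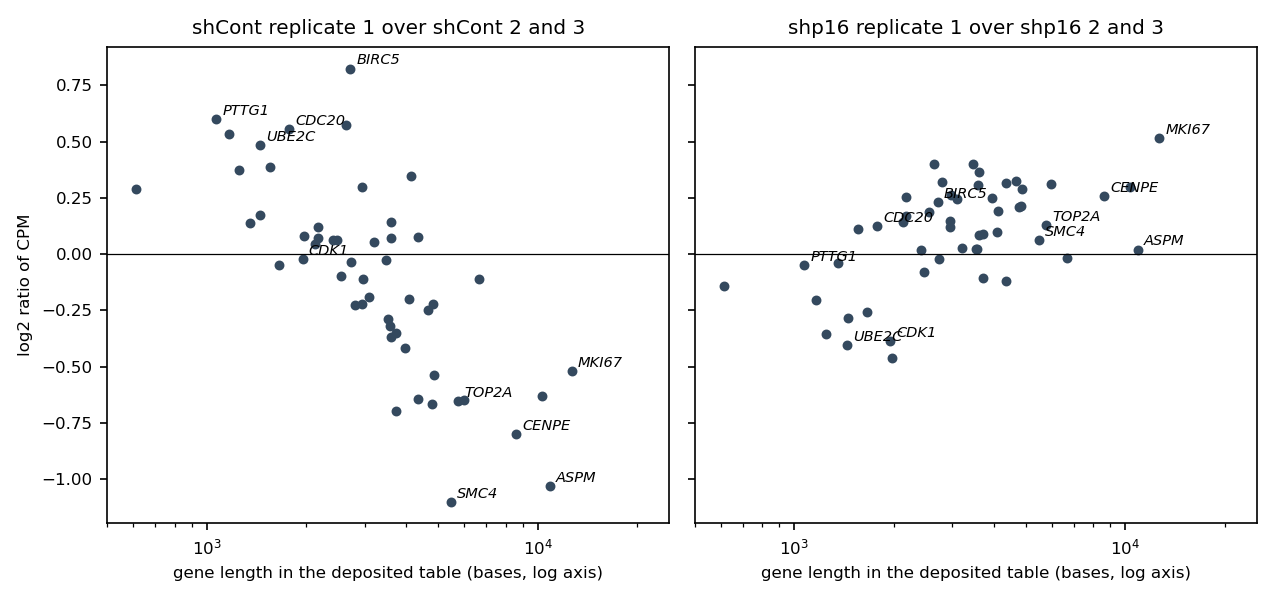
Log2 ratio of the CPM in 1 library to the mean of the other 2 libraries of its group (vertical axis) against gene length in bases on a log axis, 1 point for each of the 52 genes, for shCont replicate 1 (left) and shp16 replicate 1 (right). On the left, short genes such as PTTG1 and CDC20 lie above 0 and long genes such as SMC4 and ASPM below it, and on the right the slope has the opposite sign.

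p16 knockdown was compared with the control to see how the mitotic genes stood with the hairpin against this inhibitor of G1 kinases. ESPL1, CDCA8, PRC1, CCNA2 and AURKA rose in shp16 cells by 0.33 to 0.61 on the log2 scale. These were 5 of 52 genes, or 9.62%, beside 7.23% of all 15776 genes called higher (adjusted p under 0.05, edgeR quasi-likelihood test with Benjamini-Hochberg adjustment over all genes). With all 9 libraries that share is near the background. None of the 52 was called lower by edgeR, beside 7.59% of all genes, with 1 gene lower at an unadjusted p under 0.05, 1 called lower by DESeq2 and none by limma. The median log2 difference was 0.10 over the set and -0.016 over all genes, and 34 of the 52 were above 0. The groups did not overlap for 12 genes that were higher in shp16, or 23.1% beside 16.8% of all genes, and for 3 that were lower, or 5.77% beside 16.8%. Without shCont replicate 1 the calls were 16 higher, or 30.8%, beside 13.4% of all genes, and 6 lower, or 11.5%, beside 12.5%. Without both libraries they were 18 higher, or 34.6%, beside 16.9%, and 11 lower, or 21.2%, beside 15.8%. CDC20, MYBL2, PLK1 and AURKB were among the 18, though uncalled with all 9 libraries. The calls came down to 1, beside 3.64% of all genes, where the fit held only the 6 libraries of the groups compared. Leaving out any 1 library other than shCont replicate 1 gave 1 to 8 genes called higher and none lower, with ESPL1 among the calls each time.

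ATR knockdown in p16 knockdown cells was compared with p16 knockdown alone. INCENP, CCNA2, KIF15, SPC25 and ESPL1 fell in shp16/shATR cells, by 0.44 to 0.87 on the log2 scale. These 5 were 9.62% of the set, beside 3.49% of all genes called lower. The remaining 47 genes did not pass the test with all 9 libraries, yet 51 of the 52 fitted differences were below 0 and CKS2 was the exception, at 0.13 ± 0.11 (SE, edgeR adjusted p = 0.597). The median was -0.30 over the set and 0.0021 over all genes. No gene of the set was called higher by edgeR, by DESeq2 or by limma, and none was higher at an unadjusted p under 0.05, beside 2.73% of all genes called higher. All 3 shp16/shATR libraries were below all 3 shp16 libraries for 44 of the 52 genes, or 84.6%, beside 20.1% of all genes. The genes were measured in the same libraries and their differences are not independent of each other.

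The number of genes called in this comparison depended on the control library that stood apart, although that library is in neither group compared. With all 9 libraries the spread estimated by edgeR was a biological coefficient of variation of 0.149, and it was 0.0903 without shCont replicate 1. Without that library 33 of the 52 genes, or 63.5%, were called lower, beside 11.0% of all 16184 genes tested. With shp16 replicate 1 left out as well, 38, or 73.1%, were called lower beside 14.3% of all genes. They included CDK1, CCNB1, PLK1, AURKB, BUB1, CDC20, MYBL2 and FOXM1, which were uncalled in this comparison with all 9 libraries. With the 6 libraries of the compared groups alone 30 genes were called lower beside 10.7% of all genes. The median stayed between -0.30 and -0.26 in these fits. In the other direction, leaving out 1 of the 6 libraries compared gave 1 or 2 genes called lower, INCENP among them each time. Between 49 and 51 of the 52 differences were below 0 in each alternative, with 50 under upper-quartile factors and 49 without shp16 replicate 3.

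**Figure D3:**
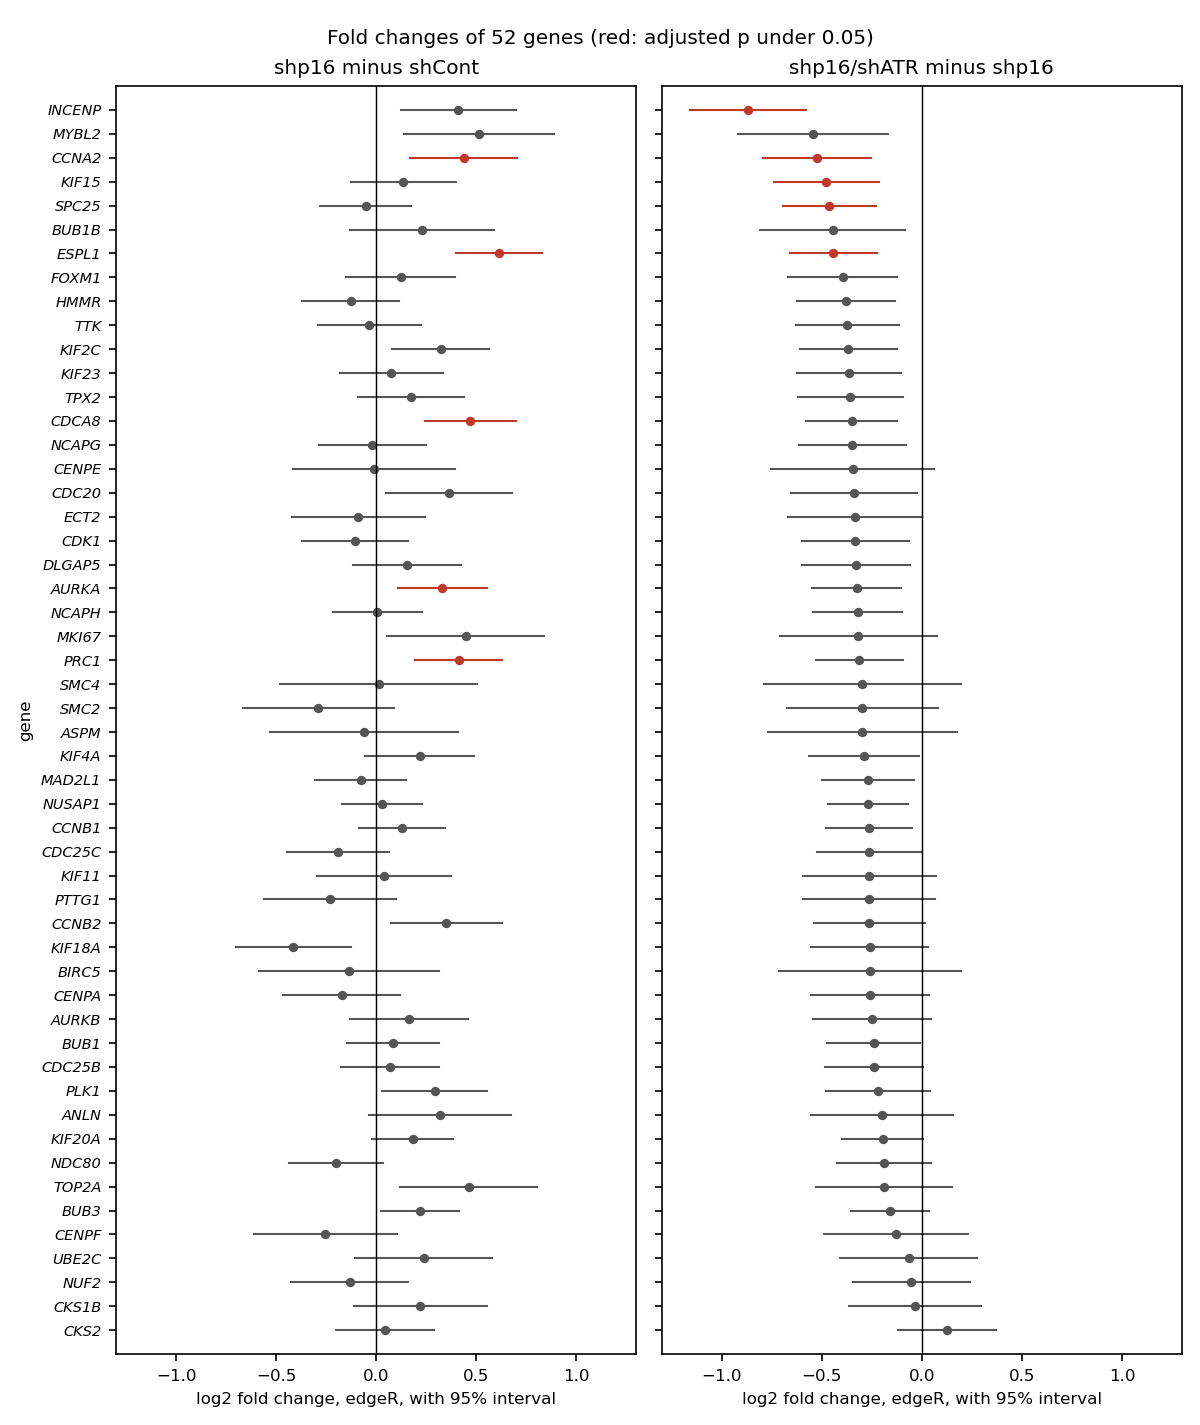
Fitted log2 fold changes from edgeR (horizontal axes, points) with their 95% intervals (lines) for the 52 genes (vertical axis), for shp16 minus shCont (left) and shp16/shATR minus shp16 (right), in red where the adjusted p was under 0.05. On the right, 51 of the 52 points lie below 0 and INCENP lies lowest at -0.87, and on the left 34 points lie above 0. The panels share the shp16 libraries.

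The double knockdown was also compared with the control. KIF18A, SPC25, HMMR, CDC25C, NDC80, CDK1, INCENP, TTK, SMC2, MAD2L1, PTTG1, CENPA, NCAPH and NCAPG were lower in shp16/shATR than in shCont cells. These 14 were 26.9% of the set, beside 12.7% of all genes called lower. None was called higher by edgeR, by DESeq2 or by limma, and none at an unadjusted p under 0.05, beside 10.9% of all genes called higher. The median was -0.20 over the set and -0.018 over all genes. Without shCont replicate 1, 25, or 48.1%, were called lower beside 17.5% of all genes. CKS1B, CKS2, CDC20 and UBE2C, or 7.69%, were called higher there beside 15.9%. Leaving out any 1 other library gave 3 to 14 genes called lower, with the fewest without 1 of the shp16/shATR libraries, and KIF18A, SPC25 and HMMR were among them each time. These comparisons share libraries with the preceding ones, so their values are given side by side and are not separate evidence.

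**Figure D4:**
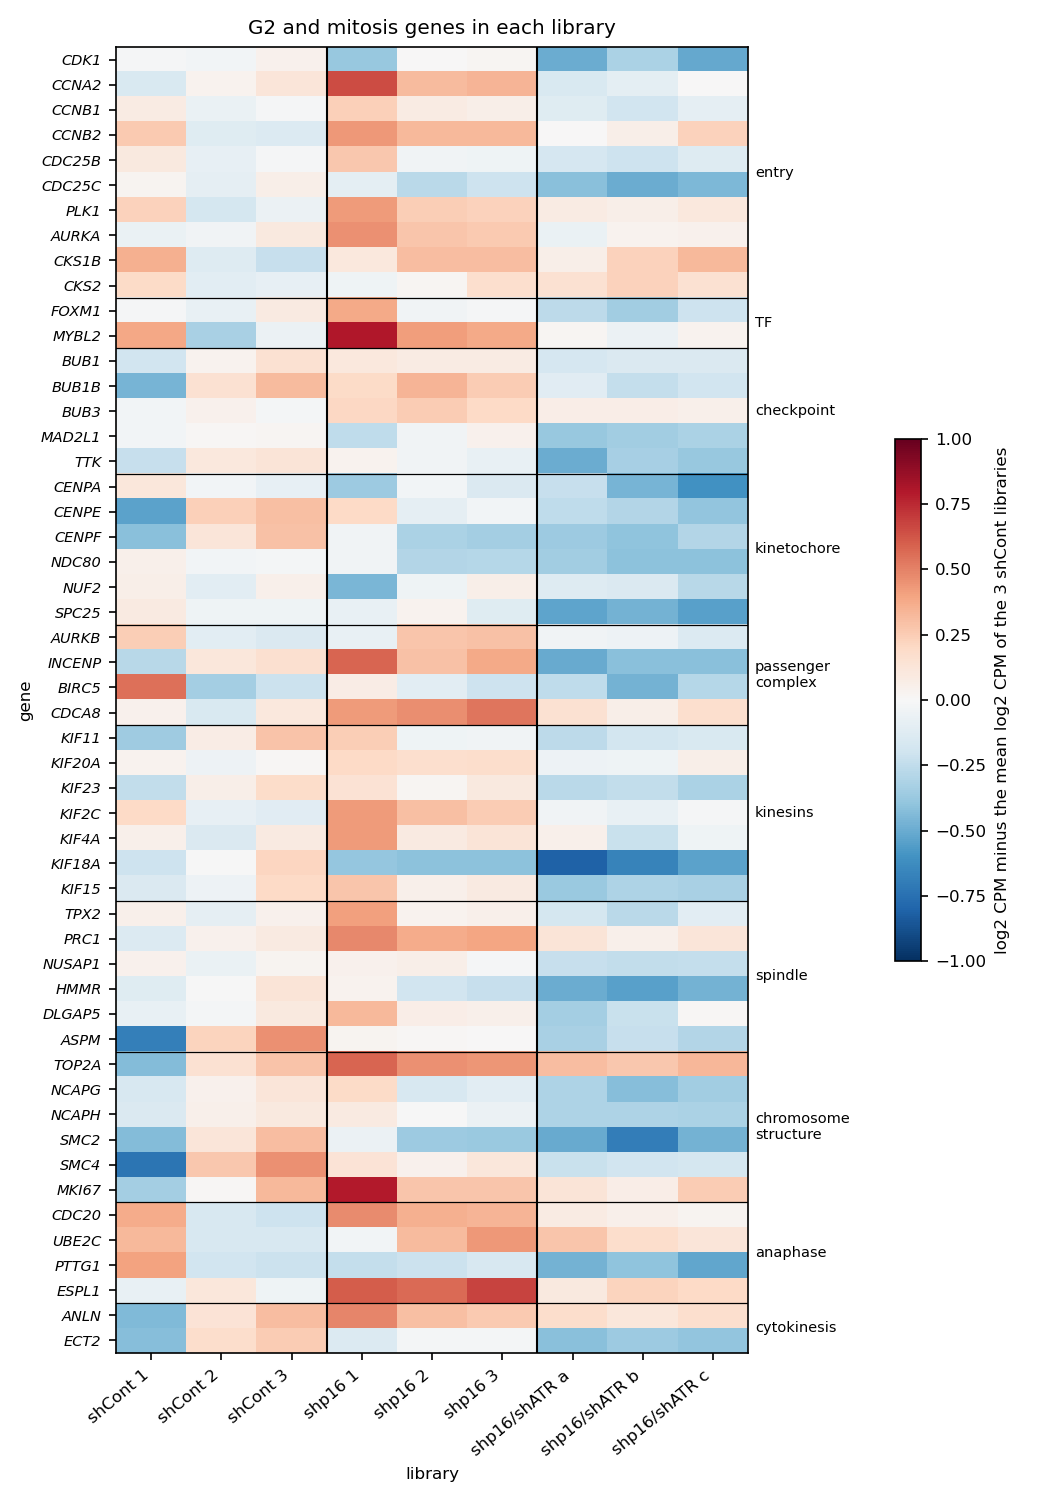
Log2 CPM of the 52 genes (rows, grouped by role) in the 9 libraries (columns) relative to the mean of the 3 shCont libraries, on a color scale from -1 (blue) to 1 (red). The 3 shp16/shATR columns are mostly blue, with ESPL1, TOP2A, CKS1B, CKS2, UBE2C, ANLN and MKI67 among the rows that stay red. shCont replicate 1 differs from the other controls and is part of the reference. In the edgeR fit without it, shp16/shATR minus shCont was -0.028 for MKI67, -0.074 for ANLN and 0.083 for TOP2A. CKS1B, CKS2 and UBE2C were called higher in that fit.

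Genes of mitotic entry came first by role. CDK1, the kinase of entry, was at 72.5, 72.02 and 75.3 CPM in shCont, 56.5, 73.4 and 74.4 CPM in shp16 and 52.02, 58.7 and 51.5 CPM in shp16/shATR libraries. The shp16/shATR libraries were below all controls, while shp16 replicate 1 lay with the shp16/shATR libraries and the other shp16 libraries with the controls. CDK1 was lower in shp16/shATR than in shCont (-0.44 ± 0.12 SE, edgeR adjusted p = 0.023), a call lost without shp16/shATR library a or c (edgeR adjusted p up to 0.0974). Its difference from shp16 was -0.33 ± 0.12 (SE, edgeR adjusted p = 0.146), and -0.45 without both libraries that stood apart (edgeR adjusted p = 4.2e-05). CCNA2, the cyclin A of S phase and G2 (ENSG00000145386, chromosome 4, 122737599 to 122745087 on GRCh37), was at 41.1, 46.7 and 49.6 CPM in shCont, 71.6, 56.8 and 57.9 CPM in shp16 and 41.2, 42.6 and 45.7 CPM in shp16/shATR libraries. All shp16 libraries were above all others, and the control and double knockdown libraries overlapped. CCNA2 rose in shp16 (0.44 ± 0.12 SE, edgeR adjusted p = 0.0334) and fell with ATR knockdown (-0.52 ± 0.12 SE, edgeR adjusted p = 0.0279). The call for shp16 against shCont was kept in 10 of 20 alternative settings and that for ATR knockdown in 12 of 19. Leaving out any 1 of the shp16 or shp16/shATR libraries ended both calls, with edgeR adjusted p-values up to 0.114 and 0.156, and leaving out shCont replicate 2 ended the first.

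CCNB1, the main cyclin B, was at 143, 129 and 134 CPM in shCont, 159.8, 143 and 141 CPM in shp16 and 124, 118 and 127 CPM in shp16/shATR libraries. It was a little higher in shp16 and lower in shp16/shATR, and the difference between them was -0.26 ± 0.10 (SE, edgeR adjusted p = 0.153). PLK1, the kinase of many mitotic steps, was at 117, 88.8 and 96.01 CPM in shCont, 134, 118 and 117 CPM in shp16 and 106, 104 and 108 CPM in shp16/shATR libraries. Its shp16/shATR libraries were all below its shp16 libraries and among the controls, and neither PLK1 difference passed the test (0.29 ± 0.12 SE, edgeR adjusted p = 0.126 for shp16 minus shCont and -0.22 ± 0.12 SE, edgeR adjusted p = 0.343 for ATR knockdown). AURKA, the Aurora kinase of the spindle poles, was at 102, 105 and 114 CPM in shCont, 147, 129 and 128 CPM in shp16 and 102, 109.7 and 110.2 CPM in shp16/shATR libraries. AURKA rose in shp16 (0.33 ± 0.10 SE, edgeR adjusted p = 0.0497), which was just inside the threshold, and its shp16/shATR level differed from that of the controls by 0.0034 on the log2 scale (95% interval -0.22 to 0.23). The AURKA call was kept in 8 of 20 alternative settings, and was lost when any 1 library other than shCont replicate 1 or 3 was left out, with adjusted p-values up to 0.134 from edgeR.

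The other genes of entry did not pass a test between shp16 and shp16/shATR cells. CCNB2, the second cyclin B, differed by -0.26 ± 0.13 (SE, edgeR adjusted p = 0.28), CDC25B, a phosphatase that activates CDK1, by -0.24 ± 0.11 (SE, edgeR adjusted p = 0.269), and CDC25C, which acts likewise, by -0.26 ± 0.12 (SE, edgeR adjusted p = 0.244). CDC25C was lower in shp16/shATR than in shCont (-0.46 ± 0.12 SE, edgeR adjusted p = 0.0163), a call lost without any 1 of the shp16/shATR libraries (edgeR adjusted p up to 0.0706). The small CDK-binding proteins CKS1B and CKS2 had group means of 57.5 ± 13.1 CPM in shCont, 66.97 ± 5.33 CPM in shp16 and 65.4 ± 5.91 CPM in shp16/shATR (SD, n = 3 libraries each) and of 66.9 ± 7.96 CPM in shCont, 68.99 ± 5.16 CPM in shp16 and 75.3 ± 2.301 CPM in shp16/shATR (SD, n = 3 libraries each). CKS1B differed by -0.034 ± 0.15 (SE, edgeR adjusted p = 0.935) with ATR knockdown, and the CKS2 difference had a 95% interval of -0.12 to 0.37. Reads of CKS1B may be shared with its second row, so its level is uncertain.

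Neither transcription factor of the set was called in a comparison with all libraries in the fit. MYBL2, which joins MuvB to activate mitotic genes, was at 110.0, 67.3 and 80.8 CPM in shCont, 146, 112 and 109 CPM in shp16 and 85.4, 80.8 and 86.6 CPM in shp16/shATR libraries. All shp16/shATR libraries were below all shp16 libraries, and the control libraries spread from 67.3 to 110.0 CPM. Its difference was 0.51 ± 0.17 (SE, edgeR adjusted p = 0.0677) for shp16 minus shCont and -0.54 ± 0.17 (SE, edgeR adjusted p = 0.0909) for ATR knockdown. FOXM1, the forkhead factor of G2, was at 81.7, 78.3 and 88.02 CPM in shCont, 107, 80.6 and 82.1 CPM in shp16 and 68.8, 64.9 and 71.5 CPM in shp16/shATR libraries. FOXM1 was lower in all shp16/shATR libraries than in any other library, with -0.40 ± 0.13 (SE, edgeR adjusted p = 0.0901) against shp16. The FOXM1 difference for shp16 minus shCont was 0.12 ± 0.12 (SE, edgeR adjusted p = 0.554).

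Checkpoint genes stood lower with ATR knockdown without passing the test. BUB1, a checkpoint kinase, was at 117, 138 and 149 CPM in shCont, 144, 142 and 142 CPM in shp16 and 119, 121 and 121 CPM in shp16/shATR libraries. Its 3 shp16 libraries lay close together and above all 3 shp16/shATR libraries, with a difference of -0.24 ± 0.11 (SE, edgeR adjusted p = 0.229). Over the 5 checkpoint genes the differences between shp16/shATR and shp16 ran from -0.45 for BUB1B to -0.16 for BUB3. TTK, the kinase that starts checkpoint signaling, and MAD2L1, which binds CDC20, were both lower in shp16/shATR than in shCont (-0.41 ± 0.12 SE, edgeR adjusted p = 0.027 and -0.35 ± 0.10 SE, edgeR adjusted p = 0.0327), calls lost without shCont replicate 2 or 3 or any shp16/shATR library, and for MAD2L1 also without shp16 replicate 2 (edgeR adjusted p up to 0.125 each).

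All 6 centromere and kinetochore genes had differences below 0 in each comparison with edgeR, although only 4 or 5 of them were below 0 for shp16 minus shCont in 11 of 20 alternatives, limma on FPKM included. The medians were -0.15 for shp16 minus shCont, -0.22 for ATR knockdown and -0.39 for shp16/shATR minus shCont. SPC25, a subunit of the NDC80 complex that holds microtubules (ENSG00000152253, chromosome 2, 169690642 to 169769881 on GRCh37), was at 28.1, 25.6 and 25.6 CPM in shCont, 25.03, 27.1 and 24.3 CPM in shp16 and 18.3, 19.1 and 18.1 CPM in shp16/shATR libraries. The control and shp16 libraries overlapped, and the shp16/shATR libraries were below every other library. SPC25 fell with ATR knockdown (-0.46 ± 0.11 SE, edgeR adjusted p = 0.0251) and against shCont (-0.52 ± 0.11 SE, edgeR adjusted p = 0.00449). The second call was kept in all 19 alternative settings. The first was kept in 13 of 19 and was lost without any 1 of the 6 libraries compared, where the edgeR adjusted p reached 0.124.

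CENPE, the kinetochore kinesin, was at 30.2, 51.4 and 53.7 CPM in shCont, 50.2, 41.02 and 42.8 CPM in shp16 and 36.7, 35.6 and 33.2 CPM in shp16/shATR libraries. The low value of shCont replicate 1 made CENPE overlap between shCont and shp16/shATR, and its difference from shp16 was -0.35 ± 0.19 (SE, edgeR adjusted p = 0.335). Without that control library CENPE was lower in shp16/shATR than in shCont by -0.59 on the log2 scale (edgeR adjusted p = 0.000484). NDC80, which gives the complex its name, and CENPA, the histone of the centromere, were lower in shp16/shATR than in shCont (-0.39 ± 0.11 SE, edgeR adjusted p = 0.0222 and -0.43 ± 0.13 SE, edgeR adjusted p = 0.0371), calls lost for NDC80 without any shp16/shATR library and for CENPA without shCont replicate 2, shp16 replicate 3 or shp16/shATR library b or c (edgeR adjusted p up to 0.0855 and 0.155). NUF2, another subunit of the complex, and CENPF had differences of -0.052 ± 0.13 (SE, edgeR adjusted p = 0.876) and -0.13 ± 0.16 (SE, edgeR adjusted p = 0.73) with ATR knockdown.

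The chromosomal passenger complex corrects wrong attachments and has INCENP as its scaffold. INCENP (ENSG00000149503, chromosome 11, 61891445 to 61920635 on GRCh37) was at 82.1, 108 and 111 CPM in shCont, 149, 122 and 129 CPM in shp16 and 70.3, 74.4 and 74.4 CPM in shp16/shATR libraries. The 3 groups did not overlap: shp16 was highest, shCont lay between, and shp16/shATR was lowest. INCENP fell with ATR knockdown (-0.87 ± 0.13 SE, edgeR adjusted p = 0.00354), and this call was kept in each of 19 alternative settings and whichever library was left out. Its difference for shp16 minus shCont was 0.41 ± 0.13 (SE, edgeR adjusted p = 0.0566), and it was also lower in shp16/shATR than in shCont (-0.46 ± 0.13 SE, edgeR adjusted p = 0.026). That last call was kept in 13 of 19 settings and lost without shCont replicate 2 or 3 or any shp16/shATR library (edgeR adjusted p up to 0.109).

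CDCA8, the borealin subunit (ENSG00000134690, chromosome 1, 38158090 to 38175391 on GRCh37), was at 47.01, 40.99 and 49.00 CPM in shCont, 61.03, 62.8 and 66.1 CPM in shp16 and 50.6, 47.4 and 51.1 CPM in shp16/shATR libraries. All shp16 libraries were above all others, and the shp16/shATR libraries overlapped with the controls. CDCA8 rose in shp16 (0.47 ± 0.10 SE, edgeR adjusted p = 0.0114), a call lost without shCont replicate 2 or shp16 replicate 3 (edgeR adjusted p up to 0.0555), and its difference with ATR knockdown was -0.35 ± 0.10 (SE, edgeR adjusted p = 0.0731). AURKB, the kinase of the complex, was at 82.2, 64.3 and 62.5 CPM in shCont, 65.8, 83.6 and 84.7 CPM in shp16 and 67.6, 66.6 and 62.8 CPM in shp16/shATR libraries. shCont replicate 1 and shp16 replicate 1 of AURKB each lay apart from the other 2 libraries of the group. With all libraries neither difference passed the test (0.16 ± 0.14 SE, edgeR adjusted p = 0.458 and -0.25 ± 0.14 SE, edgeR adjusted p = 0.344). Without both libraries AURKB was called higher in shp16 (0.41, edgeR adjusted p = 9.06e-05) and lower with ATR knockdown (-0.36, edgeR adjusted p = 0.00012). BIRC5, or survivin, had group means of 18.3 ± 6.499 CPM in shCont, 16.7 ± 1.69 CPM in shp16 and 13.96 ± 1.13 CPM in shp16/shATR (SD, n = 3 libraries each), the lowest level per length of the complex at 6.70 FPKM in shCont beside 25.5 FPKM for INCENP and 55.7 FPKM for AURKB.

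Among 7 mitotic kinesins, differences with ATR knockdown ran from -0.48 to -0.19. KIF15, a spindle kinesin (ENSG00000163808, chromosome 3, 44803209 to 44914868 on GRCh37), was at 26.99, 28.8 and 34.2 CPM in shCont, 36.3, 30.9 and 31.7 CPM in shp16 and 23.1, 24.1 and 23.8 CPM in shp16/shATR libraries. The shp16/shATR libraries were below every other KIF15 library, and shCont and shp16 overlapped. KIF15 fell with ATR knockdown (-0.48 ± 0.12 SE, edgeR adjusted p = 0.0378), a call kept in 9 of 19 alternative settings and lost without any 1 library other than shCont replicate 1 or 3, where the edgeR adjusted p reached 0.173. KIF11, the kinesin that pushes spindle poles apart, was at 60.5, 81.5 and 94.2 CPM in shCont, 91.9, 75.02 and 75.6 CPM in shp16 and 64.5, 68.2 and 69.5 CPM in shp16/shATR libraries. Its controls spanned all shp16/shATR values, and its difference from shp16 was -0.26 ± 0.15 (SE, edgeR adjusted p = 0.378).

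KIF18A, which damps chromosome movements, was the kinesin with the lowest shp16/shATR level against shCont (-0.67 ± 0.13 SE, edgeR adjusted p = 0.00366). Its means were 23.2 ± 3.404 CPM in shCont, 17.4 ± 0.162 CPM in shp16 and 14.5 ± 1.39 CPM in shp16/shATR (SD, n = 3 libraries each), and it had -0.41 ± 0.13 (SE, edgeR adjusted p = 0.0564) for shp16 minus shCont. KIF2C, a microtubule-depolymerizing kinesin, had the opposite direction in shp16 (0.32 ± 0.11 SE, edgeR adjusted p = 0.0742). KIF23 and KIF20A, both of the central spindle, differed by -0.36 ± 0.12 (SE, edgeR adjusted p = 0.0977) and -0.19 ± 0.093 (SE, edgeR adjusted p = 0.271) with ATR knockdown, and KIF4A, a chromosome-bound kinesin, by -0.29 ± 0.13 (SE, edgeR adjusted p = 0.223).

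PRC1, which bundles microtubules of the central spindle (ENSG00000198901, chromosome 15, 91509270 to 91538859 on GRCh37), was at 129.8, 147 and 151 CPM in shCont, 198, 184 and 187 CPM in shp16 and 156, 147 and 155 CPM in shp16/shATR libraries. Its shp16 libraries were above all others. PRC1 rose in shp16 (0.41 ± 0.10 SE, edgeR adjusted p = 0.0183), a call lost without shp16 replicate 2 or 3 (edgeR adjusted p up to 0.0577), and its difference with ATR knockdown was -0.31 ± 0.10 (SE, edgeR adjusted p = 0.0909). The 6 spindle proteins, with TPX2, NUSAP1, HMMR, DLGAP5 and ASPM, lay within a narrow range with ATR knockdown, from -0.38 to -0.27. HMMR, a spindle protein also known as a hyaluronan receptor, was lower in shp16/shATR than in shCont (-0.51 ± 0.11 SE, edgeR adjusted p = 0.00668).

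TOP2A, the topoisomerase that untangles chromosomes, was at 158, 236 and 259 CPM in shCont, 318, 292 and 289 CPM in shp16 and 264, 256 and 268 CPM in shp16/shATR libraries. The shp16 libraries were above all others, and the low control was again replicate 1. TOP2A differed by 0.46 ± 0.16 (SE, edgeR adjusted p = 0.0699) for shp16 minus shCont and by -0.19 ± 0.16 (SE, edgeR adjusted p = 0.559) with ATR knockdown. MKI67, which coats mitotic chromosomes and is used as a marker of proliferation, was at 225, 288 and 357 CPM in shCont, 495, 345 and 346 CPM in shp16 and 312, 299 and 340.4 CPM in shp16/shATR libraries. Here shp16 replicate 1 was the highest of all 9 libraries, and neither MKI67 difference passed the test (0.45 ± 0.18 SE, edgeR adjusted p = 0.121 and -0.32 ± 0.18 SE, edgeR adjusted p = 0.365). The condensin subunits NCAPG, NCAPH and SMC2 were lower in shp16/shATR than in shCont (-0.37 ± 0.12 SE, edgeR adjusted p = 0.0483, -0.31 ± 0.10 SE, edgeR adjusted p = 0.0444 and -0.59 ± 0.17 SE, edgeR adjusted p = 0.0292). The NCAPG and NCAPH calls were each lost without replicate 2 or 3 of shCont or shp16 or any shp16/shATR library (edgeR adjusted p up to 0.162 and 0.143), and that of SMC2 without shCont replicate 2 or 3 or any shp16/shATR library (edgeR adjusted p up to 0.116). SMC4, the partner of SMC2 in condensin, had a standard error of 0.23 with all libraries, the highest of the set for ATR knockdown, and a difference there of -0.30 ± 0.23 (SE, edgeR adjusted p = 0.52).

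The 4 anaphase genes were all below 0 with ATR knockdown, and 1 of them was called lower. ESPL1, or separase, which cuts cohesin (ENSG00000135476, chromosome 12, 53662083 to 53687427 on GRCh37), was at 77.1, 87.7 and 78.9 CPM in shCont, 123, 119.9 and 129.7 CPM in shp16 and 86.97, 94.5 and 92.96 CPM in shp16/shATR libraries. No library of the other groups reached the lowest shp16 library. ESPL1 rose in shp16 (0.61 ± 0.10 SE, edgeR adjusted p = 0.00179), a call kept in 19 of 20 alternative settings and whichever library was left out. It fell with ATR knockdown (-0.44 ± 0.10 SE, edgeR adjusted p = 0.0229), a call kept in 12 of 19 settings and lost without any 1 of the 6 libraries compared, where the edgeR adjusted p reached 0.154. Its level in shp16/shATR differed from that in shCont by 0.17 ± 0.10 (SE, edgeR adjusted p = 0.241).

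PTTG1, or securin, the inhibitor of separase, was at 236, 157 and 154 CPM in shCont, 152, 154 and 160.0 CPM in shp16 and 129, 135 and 124 CPM in shp16/shATR libraries. PTTG1 was lower in all shp16/shATR libraries than in any other library. It was called lower in shp16/shATR than in shCont (-0.49 ± 0.15 SE, edgeR adjusted p = 0.0343), a call kept in 12 of 19 alternative settings and lost without shp16 replicate 2 or 3 or any shp16/shATR library (edgeR adjusted p up to 0.117). That difference became -0.27 without shCont replicate 1 (edgeR adjusted p = 0.00795). CDC20, the activator of the anaphase-promoting complex, was at 182, 126 and 122 CPM in shCont, 196, 180.2 and 178 CPM in shp16 and 149, 146 and 144 CPM in shp16/shATR libraries. The shp16/shATR libraries were below all shp16 libraries, with a difference of -0.34 ± 0.14 (SE, edgeR adjusted p = 0.213), and shCont replicate 1 had the level of the shp16 libraries. For shp16 minus shCont, CDC20 was uncalled with all libraries (0.36, edgeR adjusted p = 0.114). It was called higher there without shCont replicate 1 and without both libraries. UBE2C, the ubiquitin-conjugating enzyme of that complex, had means of 52.02 ± 10.6 CPM in shCont, 61.3 ± 9.82 CPM in shp16 and 58.6 ± 3.25 CPM in shp16/shATR (SD, n = 3 libraries each) and a difference of -0.066 ± 0.16 (SE, edgeR adjusted p = 0.866) with ATR knockdown. ANLN and ECT2, which act in cytokinesis, had differences of -0.20 ± 0.16 (SE, edgeR adjusted p = 0.552) and -0.33 ± 0.15 (SE, edgeR adjusted p = 0.253).

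**Figure D5:**
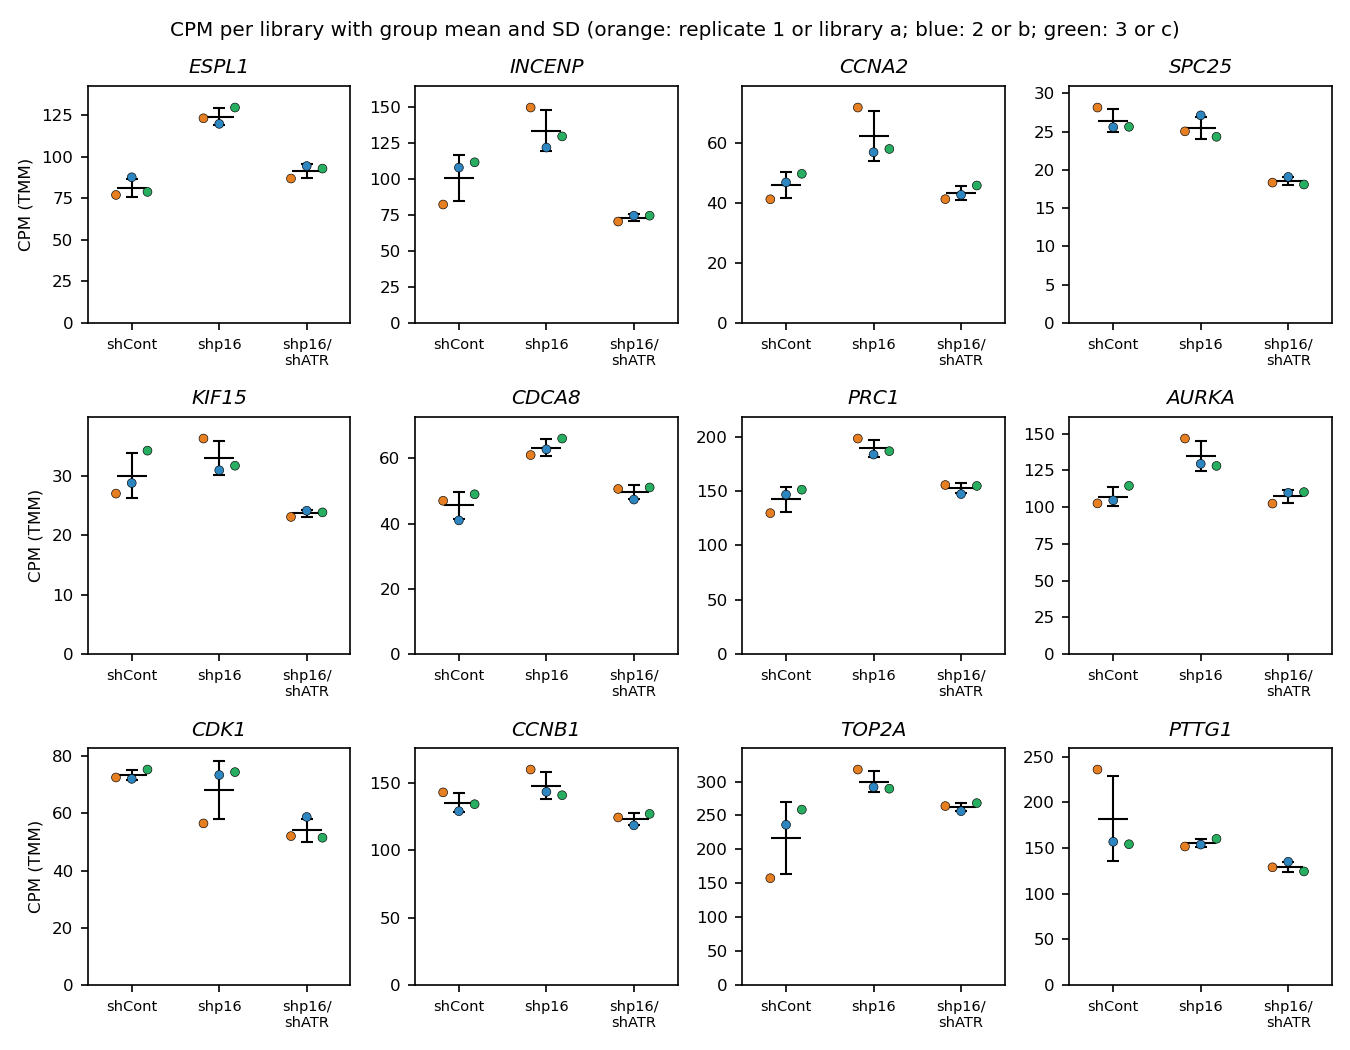
CPM after TMM scaling (vertical axes, from 0) in each library of shCont, shp16 and shp16/shATR (horizontal axes) for 12 of the genes, with bars for the group mean ± SD (n = 3 libraries). ESPL1, CCNA2, CDCA8, PRC1 and AURKA are highest in the shp16 libraries, and INCENP, SPC25, KIF15 and PTTG1 are lowest in the shp16/shATR libraries.

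Levels per length set the genes apart by more than the knockdowns did. In FPKM, PTTG1 was the most abundant in shCont cells at 169.6 ± 36.5 FPKM (SD, n = 3), ahead of CKS2 at 109 ± 8.75 FPKM (SD, n = 3) and CDC20 at 80.4 ± 15.7 FPKM (SD, n = 3). CENPE was the least abundant at 5.28 ± 1.66 FPKM (SD, n = 3), with KIF15 at 6.21 ± 0.888 FPKM (SD, n = 3) and KIF18A at 6.53 ± 1.105 FPKM (SD, n = 3) just above. The last 3 did not differ from each other beyond their spread. In shp16/shATR cells CKS2 (123 ± 5.54 FPKM) and PTTG1 (121 ± 6.91 FPKM) stood within their spread of each other.

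Genes with and without the exact CHR letters TTTGAA in a promoter were also set side by side. BUB1 and CDC25B, which are in the group without them, carried the CHR variant TTCGAA. The median difference between shp16/shATR and shp16 was -0.30 over 34 genes with the letters, from -0.87 to 0.13, and -0.26 over 11 genes without them, from -0.54 to -0.19. For shp16 minus shCont the medians were 0.042 and 0.13. CCNA2 and ESPL1 were each called in both comparisons. CCNA2 had a promoter entry with CCAAT letters and without TTTGAA, and the ESPL1 entry held both.

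Another 110 genes of mitosis, in other complexes or further subunits of the same ones, gave a similar center with ATR knockdown. Of 109 tested, 90 were below 0 with a median of -0.24, and 14 were called lower, or 12.8%, beside the 3.49% of all genes. Without shCont replicate 1, 42 of 110 were called lower, or 38.2%, beside 11.0%. SPC24, the partner of SPC25 in the NDC80 complex, fell most (-1.16 ± 0.16 SE, edgeR adjusted p = 0.00208), followed by the cohesin subunit SMC3 (-0.98 ± 0.15 SE, edgeR adjusted p = 0.00357), CDCA5, or sororin, which protects cohesin (-0.91 ± 0.12 SE, edgeR adjusted p = 0.00178), and PKMYT1, the kinase that inhibits CDK1 (-0.86 ± 0.16 SE, edgeR adjusted p = 0.00884). DSN1, ZW10, SKA1 and SKA3 of the kinetochore, GTSE1, KIFC1, NCAPG2, TRIP13, CEP55 and PBK were the other 10 that fell. ANAPC13, a small subunit of the anaphase-promoting complex, was the 1 called higher (0.44 ± 0.11 SE, edgeR adjusted p = 0.0337). The 17 genes listed for that complex, with FZR1, FBXO5 and UBE2S that act on or with it, had a median of 0.052. Of them 9 were above 0 and 8 below. Without both libraries that stood apart the median was -0.024, with 6 above 0 and 11 below.

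For shp16 minus shCont the same list had a median of -0.010, with 5 genes called higher (NCAPD2, HAUS6, DEPDC1, RBBP4 and RACGAP1) and 5 lower (ANAPC13, MAD2L1BP, CENPL, HAUS3 and LIN9). Each count was 4.59% of the 109, below the 7.23% of all genes called higher and the 7.59% called lower. Without shCont replicate 1 the counts were 10 and 15 of 110, or 9.09% and 13.6%, beside 13.4% and 12.5%. NCAPD2, a condensin subunit, rose most surely (0.58 ± 0.10 SE, edgeR adjusted p = 0.00245). LIN9 and RBBP4 are both core subunits of MuvB and went in opposite directions (-0.42 ± 0.12 SE, edgeR adjusted p = 0.0399 and 0.39 ± 0.11 SE, edgeR adjusted p = 0.0404).

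A list of 41 S phase genes, which make and copy DNA, was set beside the mitotic genes. All 41 were below 0 with ATR knockdown, with a median of -0.45 beside -0.30 for the 52 G2 and mitosis genes, and 20 of 41 were called lower, or 48.8%, beside 9.62% of the G2 and mitosis genes and 3.49% of all genes. Without shCont replicate 1 the shares were 78.05% of the S phase list and 63.5% of the G2 and mitosis genes, beside 11.0% of all genes, and without both libraries 87.8% and 73.1%, beside 14.3%. Among them RRM2, a subunit of ribonucleotide reductase, fell (-0.67 ± 0.10 SE, edgeR adjusted p = 0.00328), as did MCM2 of the replicative helicase (-0.70 ± 0.11 SE, edgeR adjusted p = 0.00455) and E2F1 (-0.62 ± 0.12 SE, edgeR adjusted p = 0.0095). RRM2, MCM2 and E2F1 were picked from the 20 called lower. The whole list ran from -0.95 to -0.0035, the latter for PCNA (edgeR adjusted p = 0.992). For shp16 minus shCont the S phase list had a median of 0.078, with 4 genes called higher and 2 lower, or 9.76% and 4.88% beside 7.23% and 7.59% of all genes. Without shCont replicate 1 there were 13 higher and 2 lower, or 31.7% and 4.88%, beside 13.4% and 12.5%. No test of the difference between the lists was made.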

How the data were processed

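RNA was measured by sequencing in 9 libraries of SKMEL28 cells, 3 per group. The authors deposited raw read counts per gene, with no normalization, and FPKM values, which equal each count divided by gene length and library total (largest relative difference 4.22e-07). The submitters' processing notes name STAR 2.6.1 and GRCh38, but the deposited gene coordinates are those of GRCh37, as only 8 of 53 rows of the set overlap their GENCODE 29 position. The counting program and its strand setting are not given in the sources used here, so overlapping and antisense genes cannot be told apart. The 3 shp16/shATR count columns share a name and are called a, b and c.

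The counts were scaled by TMM, filtered with filterByExpr and fitted with the quasi-likelihood test of edgeR 4.0.16 (R 4.3.3) over 9 libraries and 15776 genes, with Benjamini-Hochberg adjustment and a threshold of 0.05. Scripts were tested on simulated data. DESeq2 1.42.0 and limma 3.58.1 (log2 of FPKM plus 1 or 0.1) were alternatives, with other scalings, filters and libraries left out. Promoters came from RefSeq.

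Members and lists were chosen with earlier results of these data known. Values in every library were given for 13 genes chosen by role and for the genes with the lowest adjusted p, to which CCNA2, AURKA and KIF15 were added after their values were seen.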

Additional observations from a re-analysis of the deposited data

How the results depend on the processing

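The counts of calls moved with the processing more than the fitted differences did. The 3 medians kept their sign and moved by less than the spread between libraries in the alternatives run, with leave-one-out ranges of 0.056 to 0.17 for shp16 against shCont, -0.32 to -0.26 for shp16/shATR against shp16 and -0.23 to -0.15 for shp16/shATR against shCont. Leaving out 1 library gave 1 to 16 higher and 0 to 6 lower calls for shp16 against shCont, 1 to 33 lower for shp16/shATR against shp16, and 0 to 4 higher and 3 to 25 lower for shp16/shATR against shCont, with the highest counts each time without shCont replicate 1. With both libraries that stood apart left out, an alternative chosen after seeing the data, the counts were 18 higher and 11 lower, 38 lower, and 7 higher and 29 lower. At an adjusted p under 0.01 they were 1 higher, 1 lower and 3 lower. With only the groups compared they were 1 higher, 30 lower and 8 lower. DESeq2 gave 10 higher and 1 lower for shp16 against shCont and 12 lower for shp16/shATR against shp16. For shp16 against shCont, upper-quartile factors gave 1 lower, no filter gave 8 higher, and limma gave 8 higher with either pseudocount. For shp16/shATR against shp16, limma on log2(FPKM + 1) gave 8 lower. For lower calls with ATR knockdown, the share of all genes rose from 3.49% to 11.0% without shCont replicate 1 and 14.3% without both libraries. No such share is given for DESeq2, limma, other scalings and filters, the stricter threshold, the block fits or the remaining leave-one-out fits. Nor is one given for shp16/shATR against shCont without both libraries or with only the groups compared. Counts in those fits cannot separate the set from a change over all genes.

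Whether replicate numbers pair the samples was not settled. Correlations of deviations from group means lay between -0.30 and 0.29 for same-numbered libraries and between -0.37 and 0.43 for others. Deviations of 3 libraries from their own mean are tied to each other, so these values cannot exclude a pairing. With a replicate block, limma on log2(FPKM + 1) gave 2 lower for shp16/shATR against shp16, 7 lower for shp16/shATR against shCont and 4 higher for shp16 against shCont, and edgeR on the counts of shCont and shp16 gave 0 calls in either direction. No count model with a block held the shp16/shATR libraries, because their 3 count columns share 1 name and were not assigned to numbers by their values, although each matches 1 numbered FPKM column.

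No call made with all libraries changed direction among the genes described by library. Differences near 0 that were uncalled with all libraries changed sign as follows. For shp16 minus shCont, CDK1 was between -0.17 and 0.014 with 1 library left out and 0.0026 without both libraries, BUB1 was between -0.012 and 0.16 and -0.016 without both, and FOXM1 was between -0.022 and 0.20 and -0.034 without both. KIF11 was -0.016 with upper-quartile factors, -0.22 without both, and between -0.12 and 0.19 with 1 library left out. Without both libraries KIF11 was called lower (edgeR adjusted p = 0.023). CENPE was 0.00091 with no filter, 0.0068 under limma with a pseudocount of 1 (with and without the replicate block), 0.017 with 0.1, 0.022 in the count block, and between -0.24 and 0.13 with 1 library left out. PTTG1, SPC25 and KIF15 became 0.011, 0.0056 and -0.011 without both libraries. For shp16/shATR minus shCont, PLK1 was between -0.012 and 0.19 with 1 left out, AURKB was between -0.16 and 0.046 with 1 library left out and 0.043 without both, MKI67 between -0.028 and 0.31 and -0.033 without both, MYBL2 between -0.18 and 0.18 and 0.18 without both, and CDC20 between -0.077 and 0.23 with 1 left out. Without both libraries MYBL2 was called higher (edgeR adjusted p = 0.0469). AURKA was -0.016 with upper-quartile factors, -0.00036 with library size only, -0.036 without both, and between -0.032 and 0.052 with 1 library left out. The cause of these changes was not tested.

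The tested genes of the set averaged 12.3 to 334 CPM over the 9 libraries, and standard errors for ATR knockdown ran from 0.089 to 0.23. Technical replicates of 1 experiment in 1 cell line give no spread between experiments, and with 3 libraries against 3 an exact permutation test of a single gene cannot go below 0.1. No group with ATR knockdown alone was analysed here, so an ATR effect without p16 knockdown could not be measured.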
